A study of Canis lupus familiaris with 4 samples.

Results

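J3T-2A and J3T-1, the canine glioblastoma lines with high annexin A2 (ANXA2) in this study, were compared with each other gene by gene. J3T-2A is labelled as a J3T-2 line made to overexpress ANXA2, and J3T-1 is labelled as a separate line with high ANXA2 of its own. A gene counted as measured where the brightest of its probe sets reached a signal of 250 on the higher of the J3T-2A and J3T-1 arrays. By this rule 6850 of the 15115 genes with a symbol on the array were measured. The signals are linear fluorescence intensities, and every ratio below is J3T-2A over J3T-1 unless another pair is named.

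The J3T-1 and J3T-2 lines were both derived from the same parental canine glioblastoma line, J3T. The set also held J3T-1shA, labelled as J3T-1 with ANXA2 knocked down, and unmodified J3T-2, which is labelled as low in ANXA2. All 4 lines were grown in the same medium with fetal bovine serum, and RNA of each was hybridized to 1 GeneChip Canine Genome 2.0 array. With 1 array per line there is no spread between replicates and no test. The overexpression of ANXA2, the line of origin and the state of the single culture cannot be told apart in any ratio between J3T-2A and J3T-1.

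Annexin A2 is a calcium-dependent protein that binds membrane phospholipids, and with S100A10 it forms a complex on the cell surface that helps convert plasminogen into plasmin, a protease of the extracellular matrix. Glioblastoma is the most aggressive glioma, and its cells spread along vessels and through the brain parenchyma. J3T-1 and J3T-2A cells are both described by the study as angiogenic, so the pair sets one line with high ANXA2 against another, on different cellular backgrounds.

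Error within the pair could be gauged only from genes with more than 1 probe set. For 3700 genes a second measured probe set was at hand, and its log2 ratio differed from that of the brightest one with an SD of 0.36 (median absolute difference 0.20). This SD covers the measurement of 1 RNA sample by different probes and not the variation between cultures. The 4 arrays had like medians (101.8 to 106.5) and like shares of probe sets at 250 or over (35.2% to 35.9%), and their number limits the precision of every value. Most genes had much the same signal in both lines. The median log2 ratio over the 6850 measured genes was -0.05, the 10th and 90th percentiles were -0.53 and 0.53, and the log2 signals of both lines correlated across genes with r = 0.94, where genes are not independent replicates.

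ANXA2 itself did not separate the lines. Its brightest probe set had signals of 28656 on the J3T-1 array, 30093 on J3T-1shA, 30102.5 on J3T-2 and 28775 on J3T-2A, a log2 ratio of 0.01 for J3T-2A over J3T-1. A second bright probe set gave 24128, 25725, 30311 and 35651 in the same order, a log2 ratio of 0.56, and a further, dim one gave 63.6, 61.2, 168 and 14.7. The bright probe sets thus placed ANXA2 among the most abundant transcripts of all 4 lines, and in both the line labelled J3T-1shA, the knockdown, was slightly above J3T-1, so these signals show no knockdown and do not check the labels. Lines are named throughout as their arrays are labelled. All signals below are given in this order, with the J3T-1 array first, then J3T-1shA, then J3T-2, and J3T-2A last.

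Among the measured genes, 186 were over 2-fold higher in J3T-2A (2.72%) and 133 were over 2-fold lower (1.94%), while 6531 stayed within 2-fold. The other array was under 250 for 93 of the higher genes and for 71 of the lower ones. Read against 250 in place of the dim signal, 124 of the higher and 74 of the lower genes were still past 2-fold. The median fold of the genes past 2-fold was 2.73 for those higher in J3T-2A and 2.48 for those lower, and over 4-fold there were 51 higher and 18 lower genes. A second probe set was measured for 69 of the 186 higher genes, was above 0 for 68 of them and over 2-fold higher for 52. For the 55 lower genes with such a probe set it was below 0 for 52 and over 2-fold lower for 32, and in neither direction did it pass 2-fold the opposite way (0 genes). Where a fold is printed below for a gene with the other array under 250, it is given as "at least" so many fold, with the limit of 250 as the lower value. Log2 ratios and counts within lists use the signals as they are. Such genes thus enter the counts even where the bound is under 2-fold.

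**Figure D1:**
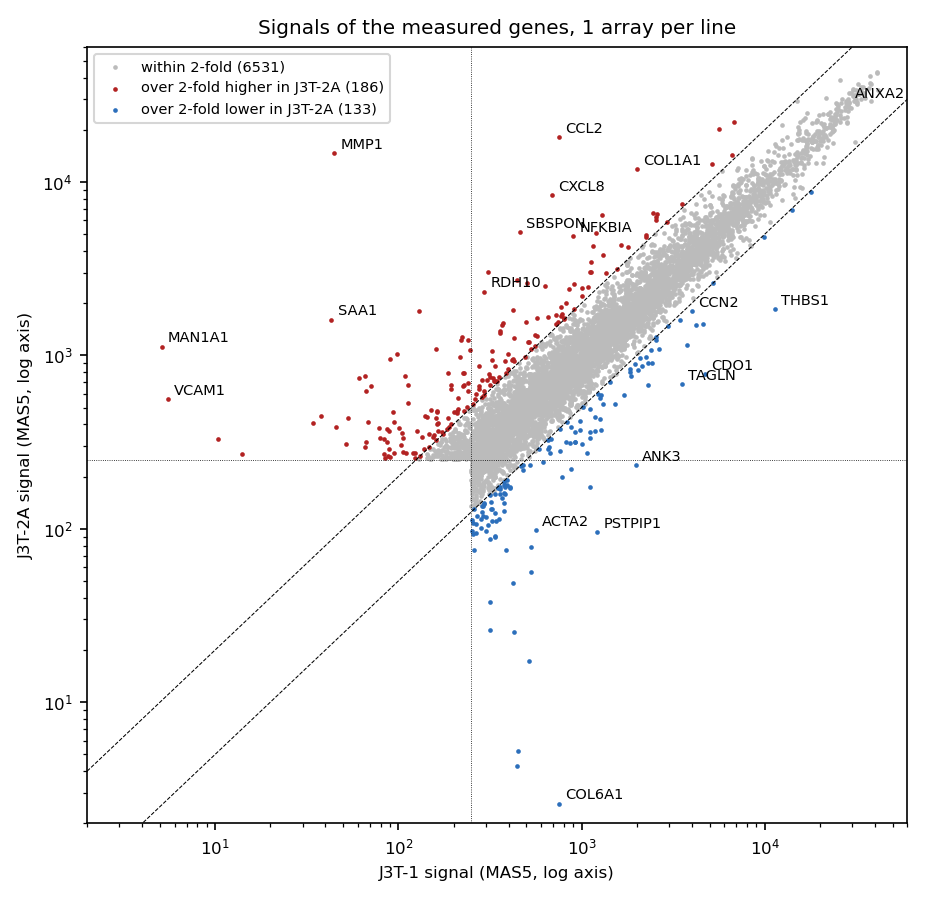
Signals of the 6850 measured genes on the J3T-1 array (horizontal, log axis) and the J3T-2A array (vertical, log axis), 1 point per gene, with dashed lines at 2-fold and dotted lines at the limit of 250. The 186 genes over 2-fold higher in J3T-2A (red) lie above the diagonal, MMP1 (44.8 against 14605) and CCL2 (754 against 18212) among them, and the 133 lower ones (blue) lie below it, as THBS1 (11390.2 against 1851) does.

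Genes of inflammation and of matrix breakdown were among those with the largest ratios in favour of J3T-2A. MMP1, the interstitial collagenase that cuts fibrillar collagen, had signals of 44.8, 59.2, 13568 and 14605, and so was at least 58.4-fold higher in J3T-2A than in J3T-1. Its second probe set gave 1.0, 8.6, 11845 and 13324. MMP1 was therefore near the bottom of the scale in both J3T-1 lines and among the bright genes in both J3T-2 lines. In a mass of cells, fewer expressing cells and less RNA per cell cannot be told apart, here or in any value below.

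Chemokines showed the same split between the lines of origin. CCL2, which attracts monocytes, had signals of 754, 108, 22771 and 18212, a 24.2-fold difference (log2 ratio 4.60). CXCL8 (interleukin-8), which attracts neutrophils and acts on endothelial cells, had signals of 691, 46.9, 7611 and 8418, a 12.2-fold difference (log2 ratio 3.61), and 2 further probe sets gave log2 ratios of 4.42 and 4.43. In both cases the J3T-1 signal lay well above that of J3T-1shA and far below those of the J3T-2 lines. CXCL10, an interferon-induced chemokine, was at 14.1, 28.7, 810 and 268, so that only unmodified J3T-2 was clearly over the limit. CXCL16, a membrane-bound chemokine, did not follow the line of origin, with 53.2, 355, 216 and 432.

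Of the 6 measured chemokines in the list, 4 were over 2-fold higher in J3T-2A (against 2.72% of all measured genes) and 0 were lower. CXCL10 and CXCL16, among the 4, were under 250 in J3T-1, and against 250 they were only 1.07-fold and 1.73-fold higher. CXCL14 was level between J3T-1 and J3T-2A (log2 ratio -0.05), and CCL20 was somewhat lower (-0.77).

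Genes that NF-kB is known to induce, and that form its feedback loop, were next. NFKBIA, which encodes the inhibitor that holds NF-kB in the cytoplasm, had signals of 901, 1103, 9244 and 4863, a 5.40-fold difference (log2 ratio 2.43). NFKB1, the precursor of the p50 subunit, had 657, 809, 1962 and 1664 (log2 ratio 1.34), but its other probe sets gave 1.03 and 0.10. SAA1, an acute-phase protein, had 43.1, 14.3, 5252 and 1609 and was at least 6.44-fold higher. SAA genes are near-identical copies, so its probes may read other members of the family.

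TNFAIP2, a gene induced by tumor necrosis factor, had 113, 106, 1692 and 676, at least 2.70-fold higher, with a second probe set at a log2 ratio of 2.60. VCAM1, an adhesion molecule for leukocytes, had 5.5, 13.1, 318 and 558, at least 2.23-fold higher. NFKBIZ, a nuclear regulator of NF-kB, passed 2-fold (106, 142, 643 and 279), though J3T-2A was barely over the limit. These 3 genes were under the limit in both J3T-1 lines, and the J3T-2 lines were the brightest.

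In the whole list of NF-kB and inflammation, 12 of the 32 measured members were over 2-fold higher (37.5%, against 2.72% of all measured genes) and 1 was lower. The median log2 ratio was 0.48 against -0.05 for all genes. CXCL10, CXCL16 and NFKBIZ, among the 12, were past 2-fold by their signals but not against 250. Of the 15 subunits, regulators and induced genes, 6 were higher, with a median of 0.91. Not all induced genes took part. ICAM1, another leukocyte adhesion molecule, was lower (1549, 1337, 785 and 823; log2 ratio -0.91) and so was BCL2A1, an inhibitor of apoptosis (2367, 1353, 4780 and 1288; -0.88), both within 2-fold. The cytokines that often drive this response were dim: IL1B lay at 6.9 to 26.0 and TNF at 77.7 to 135 over the 4 arrays. Among genes of prostaglandin metabolism, PTGES, a prostaglandin E synthase, was higher (276, 2736, 1337 and 636, log2 ratio 1.21). PTGIS, the prostacyclin synthase, was at least 1.51-fold lower (377, 252, 50.6 and 140).

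Among complement genes, C1S, a protease of the classical pathway, had signals of 239, 79.0, 2574 and 1223 and was at least 4.89-fold higher. SERPING1, the inhibitor of that protease, had 727, 665, 2266 and 1510, a 2.08-fold difference (log2 ratio 1.06), and its other probe sets gave 1.55 to 2.18. C1R, the partner protease of C1S, was at 120, 62.9, 382 and 274, at least 1.10-fold higher. C1QA, a subunit of the same C1 complex, was lower (662, 515, 317 and 298, log2 ratio -1.15). Genes of antigen presentation by class I molecules were higher to a lesser degree. DLA88, a canine class I heavy chain, had 1133, 1725, 2455 and 3438 (log2 ratio 1.60). DLA-64 had 101, 52.4, 140 and 381, at least 1.52-fold higher. Class I genes are so alike that probes may be shared. B2M, the light chain of all class I molecules, had 17039, 16092, 27301 and 25095 (log2 ratio 0.56). In all, 2 of 11 measured members of antigen presentation were higher (18.2%, against 2.72% of all measured genes) and 0 lower, with a median of 0.32.

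The interferon list gave no such shift. Its median over 14 measured genes was 0.02, and CXCL10 alone passed 2-fold (7.14% higher, against 2.72% of all measured genes).

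Other genes with the largest ratios and with the same split by origin included SLC2A9, a urate transporter, at 504, 17.2, 5220 and 2620 (5.20-fold; a second probe set gave a log2 ratio of 2.25). TNFSF18, the ligand of the T cell receptor GITR, had 218, 93.3, 1897 and 1233, at least 4.93-fold higher. NT5E, the ectoenzyme CD73 that makes adenosine, had 61.2, 7.4, 3259 and 738, at least 2.95-fold higher. NEFL, the light neurofilament chain, had 2561, 2134, 15463 and 6292 (2.46-fold). In each of the 4 genes unmodified J3T-2 was above J3T-2A.

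**Figure D2:**
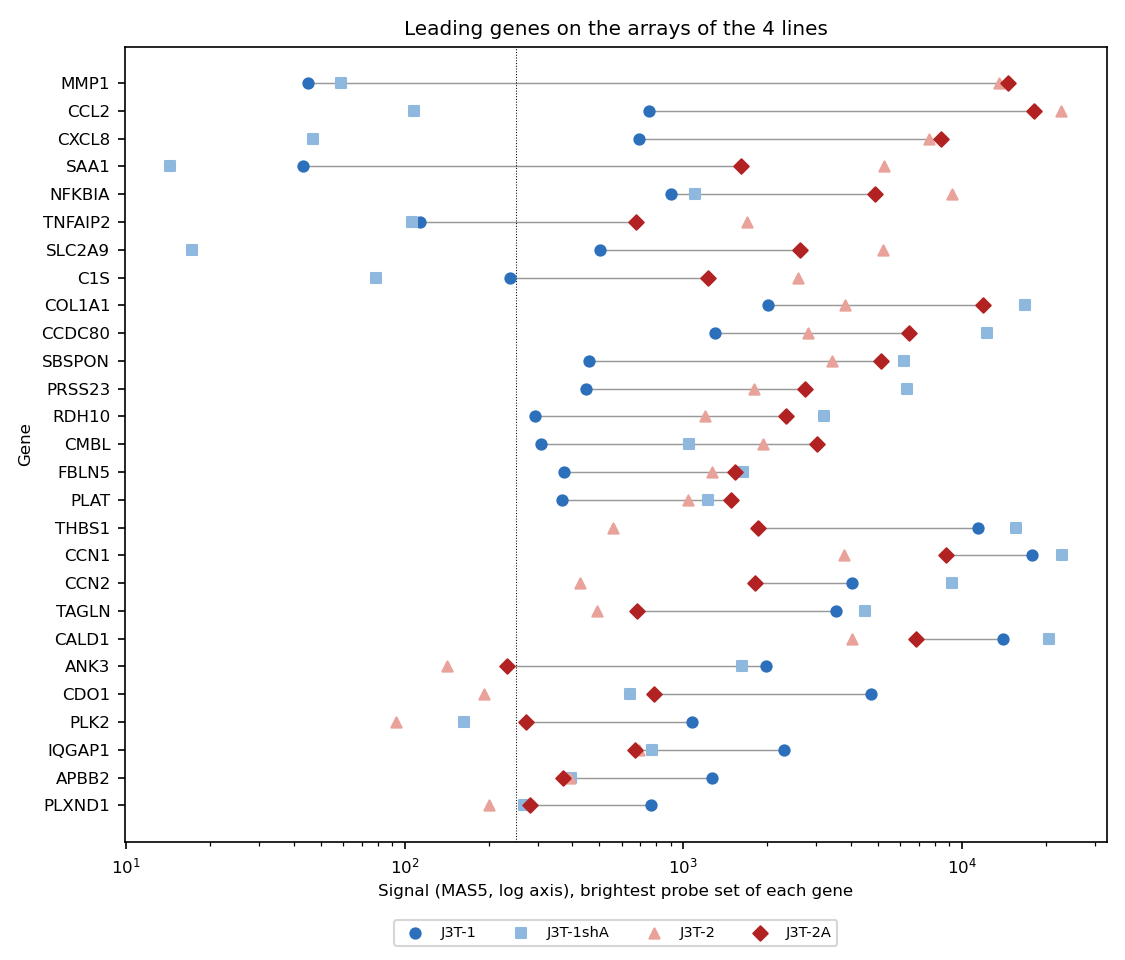
Signals of 27 leading genes (log axis; brightest probe set; 1 array per line), with a grey line joining J3T-1 and J3T-2A and a dotted line at the limit of 250. For the upper genes (MMP1 to C1S) both J3T-2 lines lie to the right of both J3T-1 lines; for COL1A1 to PLAT the J3T-1 array is lowest of the 4; for THBS1 to ANK3 both J3T-1 lines lie to the right; for CDO1 to PLXND1 the J3T-1 array is highest of the 4.

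For a second group of genes higher in J3T-2A, the J3T-1 array had the lowest signal of all 4 lines. SBSPON, a secreted protein with a thrombospondin-type domain, had signals of 460.0, 6180, 3424 and 5142, an 11.2-fold difference, with a log2 ratio of 3.48 that its second probe set matched (3.47). CMBL, a cytosolic hydrolase, had 309, 1050.0, 1939 and 3028 (9.81-fold; other probe sets gave log2 ratios of 2.50 and 3.46). RDH10, which makes retinal on the way to retinoic acid, had 294, 3206, 1195 and 2332 (7.94-fold). PRSS23, a serine protease, had 446, 6352, 1787 and 2727 (6.12-fold). For SBSPON, RDH10 and PRSS23 the J3T-1shA array was brighter than both J3T-2 lines, so the ratio to J3T-1 did not follow the line of origin.

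Of the matrix genes past 2-fold higher, the J3T-1 array was lowest for 3 of 4 collagen genes and for 6 of 8 others. SRPX2 and OGN were lowest in J3T-2 and COL13A1 in J3T-1shA. Such genes were picked for a J3T-1 signal below that of J3T-2A, which favours these counts. Over all measured members, J3T-1 was lowest for 10 of 24 collagen genes and for 13 of 33 other matrix genes. The share of all measured genes that were lowest in J3T-1 was not counted. These counts therefore do not show whether matrix genes differ from the rest. COL1A1, the main chain of type I collagen, had signals of 2014, 16842, 3799 and 11899, a 5.91-fold difference (log2 ratio 2.56), and its other probe sets gave 2.17 to 3.25. COL5A1, a chain of the minor fibrillar collagen V, had 2450, 8772, 3952 and 6623 (log2 ratio 1.43; second probe set 1.37). The partner chain COL1A2 was brighter and less different, at 21684, 31253, 23488 and 30514 (log2 ratio 0.49). P4HA2, a prolyl hydroxylase that stabilizes the collagen helix, had 6632, 10910.4, 9122 and 14299 (log2 ratio 1.11). All 4 of these genes were lowest in J3T-1.

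One collagen went the other way by a wide margin. COL6A1, a chain of the beaded-filament collagen VI, had signals of 750.3, 92.3, 2.1 and 2.6, at least 3.0-fold lower in J3T-2A. Its second probe set gave 336, 138, 7.7 and 9.6. The gene was thus at the bottom of the scale in both J3T-2 lines and over the limit in J3T-1 alone. Of 24 measured genes of collagen chains and their processing, 4 were over 2-fold higher (16.7%, against 2.72% of all measured genes) and 1 lower, with a median log2 ratio of 0.47.

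Among 33 other measured matrix proteins, 8 were over 2-fold higher (24.2%, against 2.72% of all measured genes) and 0 lower, with a median of 0.10. GPC4 and OGN, among the 8, were under 250 in J3T-1 and not past 2-fold against 250. CCDC80, a secreted matrix-binding protein, had signals of 1300, 12295, 2792 and 6472 (4.98-fold). FBLN5, which guides elastic fibre assembly, had 374, 1642, 1267 and 1527 (4.09-fold; other probe sets gave log2 ratios of 2.09 and 2.80). FBN1, the main protein of microfibrils, had 2584, 6661, 3975 and 6525 (log2 ratio 1.34, others from 0.14 to 1.03). TGFBI, a secreted adhesion protein induced by TGF-beta, had 569, 2908, 910.2 and 1646 (log2 ratio 1.53). Here again the J3T-1 array gave the lowest signal of the 4.

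Several matrix proteases other than MMP1 were also higher. PLAT, the tissue-type plasminogen activator, had 368, 1223, 1037 and 1487 (4.05-fold). PLAU, the urokinase-type activator, had 859, 2334, 874 and 2414 (2.81-fold). PLAT was thus low in J3T-1 alone, whereas PLAU was low in J3T-1 and J3T-2 and high in both modified lines. MMP19 had 239, 408, 889 and 692, at least 2.77-fold higher. MMP2 (267, 105, 79.3 and 342) and MMP14 (756, 733, 965 and 858) stayed within 2-fold. TIMP3, an inhibitor of metalloproteinases, had 194, 1827, 817 and 401, at least 1.60-fold higher. With TIMP3, 5 of 18 measured proteases and inhibitors were higher (27.8%, against 2.72% of all measured genes) and 0 were lower. The 5 measured cathepsins had 0 members past 2-fold and a median log2 ratio of -0.41. TIMP1, the brightest inhibitor, was at 28104, 5807, 37282 and 21772, so that J3T-1shA alone was far below the others.

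Other annexins and the partner of ANXA2 were level. S100A10 had signals of 20191, 16678, 21178 and 21741 (log2 ratio 0.11), and ANXA1 had 27977, 21529, 23566 and 27956 (0.00). None of the 8 measured annexins passed 2-fold (0 higher, 0 lower). Of 9 measured S100 genes, S100A1 was at 66.7, 336, 550 and 626, at least 2.50-fold higher, and S100A5 at 150, 130, 382 and 483, at least 1.93-fold higher. By their signals these were 2 of 17 measured annexins and S100 genes past 2-fold (11.8%, against 2.72% of all measured genes). S100A4, among the brightest genes, leaned lower (30988, 19255, 29544 and 16960; log2 ratio -0.87).

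Genes of TGF-beta and BMP signalling were also higher where they differed, 5 of 20 measured members (25%, against 2.72% of all measured genes) with 0 lower, and with a median of 0.36. FST (follistatin), which traps activin, had signals of 1314, 1193, 1312 and 3777 (2.87-fold), so that J3T-2A stood above 3 level lines. BMP6, a ligand, had 427, 2117, 512 and 1264 (2.96-fold), and BAMBI, a decoy receptor, had 225, 801, 230 and 667, at least 2.67-fold higher. These were high in J3T-1shA and J3T-2A and low in J3T-1 and J3T-2. INHBA and LTBP1 passed 2-fold with J3T-2A signals of 272 and 264, close to the limit.

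**Figure D3:**
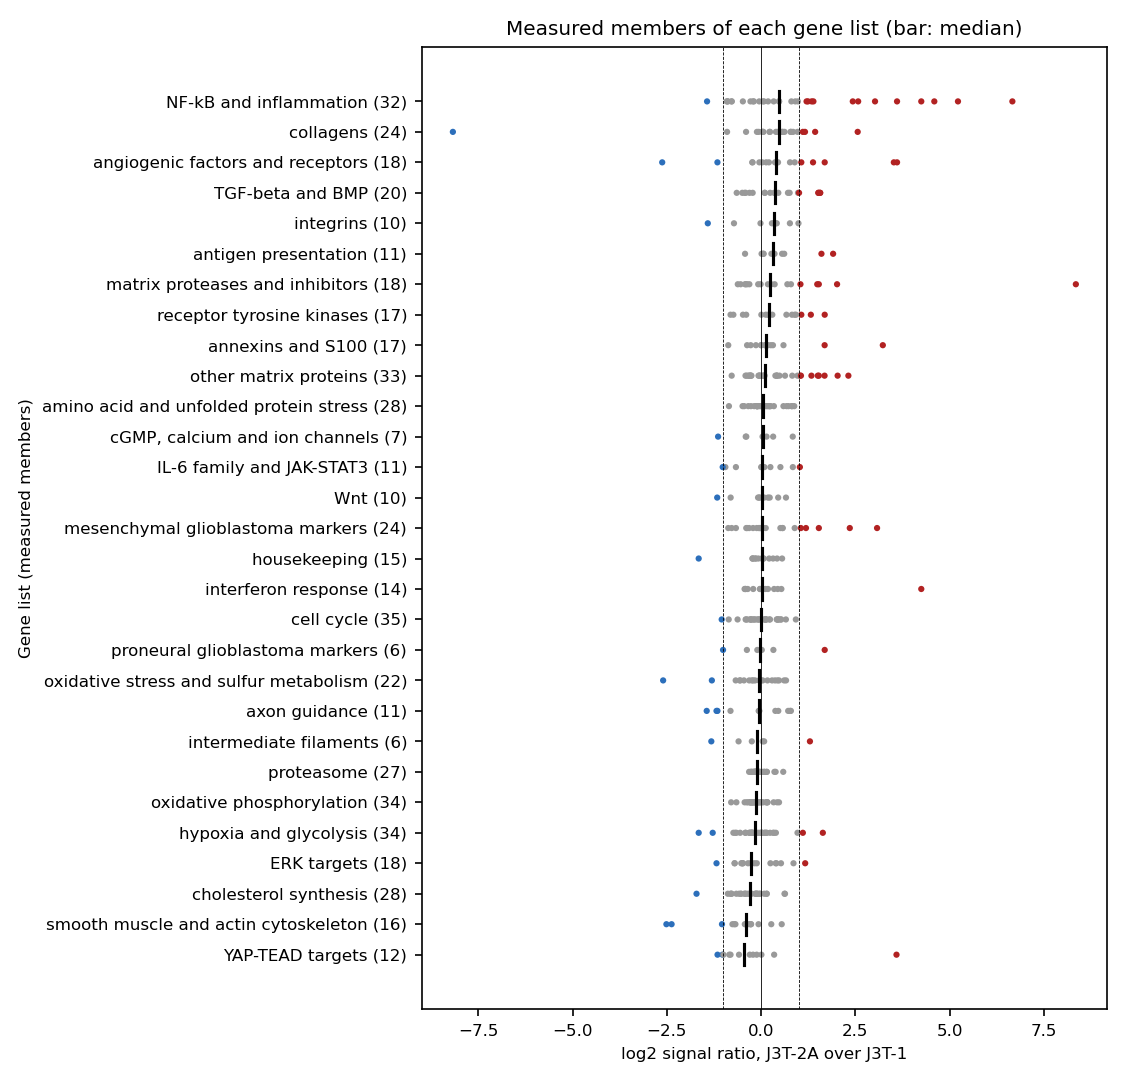
Log2 ratios of J3T-2A over J3T-1 for the measured members of each gene list with 4 or more of them (number in brackets), with the list median as a black bar and dashed lines at 2-fold. The medians run from 0.48 for NF-kB and inflammation to -0.44 for YAP-TEAD targets; members over 2-fold higher are red and members over 2-fold lower are blue.

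Of 18 measured angiogenic factors and receptors, 5 were over 2-fold higher in J3T-2A (27.8%, against 2.72% of all measured genes) and 2 were lower (11.1%, against 1.94%). The median log2 ratio was 0.39, with 13 of the 18 above 0. PDGFRA, among the 5, was under 250 in J3T-1 and not past 2-fold against 250. FGFR2, also among the 5, had a second probe set within 2-fold (log2 ratio 0.42). CXCL8 had the highest ratio of the list. VEGFA, the principal endothelial growth factor, was bright and level between J3T-1 and J3T-2A, with signals of 4725, 1635, 4470 and 4040 (log2 ratio -0.23), and its receptor FLT1 likewise (1021, 110, 1736 and 1180; 0.21). J3T-1shA alone was low for both. ANGPT1, a ligand of the endothelial receptor TIE2, had 240.0, 1027, 189 and 624, at least 2.50-fold higher in J3T-2A. EDNRA, an endothelin receptor, had 66.0, 326, 294 and 758, at least 3.03-fold higher.

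Of the 4 measured inhibitors of angiogenesis in this list, 1 was over 2-fold lower (against 1.94% of all measured genes) and 0 were higher. Their median log2 ratio was level at -0.01, and the 1 lower gene was THBS1. THBS1 (thrombospondin-1), a matrix glycoprotein known to hold back endothelial growth, had signals of 11390.2, 15622, 558 and 1851, a 6.15-fold lower signal in J3T-2A (log2 ratio -2.62; second probe set -2.56). Both J3T-1 lines were bright and both J3T-2 lines dim, the reverse of CXCL8. NRP2, a receptor for class 3 semaphorins and VEGF, was 2.23-fold lower (2379, 1672, 1621 and 1067). It was 1 of 3 receptors of axon guidance over 2-fold lower among 5 measured (against 1.94% of all measured genes), the others being PLXND1 (766, 267, 200 and 282) and EPHA2 (655, 323, 316 and 289). All 3 were highest in J3T-1, a pattern favoured by picking genes with a J3T-1 signal above that of J3T-2A.

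Genes of the contractile cytoskeleton were lower in J3T-2A where they passed 2-fold. TAGLN (transgelin), an actin-binding protein of smooth muscle, had signals of 3523, 4487, 490 and 680.3, a 5.18-fold difference (log2 ratio -2.37), and its other probe sets gave -3.57 and -2.60. ACTA2, smooth muscle actin, had 562, 13625, 24.9 and 98.7, at least 2.25-fold lower, so that J3T-1shA stood far above the rest. CALD1 (caldesmon) had 14065, 20515, 4034 and 6860 (2.05-fold lower), though its other probe sets gave log2 ratios from -0.66 to -0.43, all within 2-fold. In each of the 3 genes both J3T-1 lines were above both J3T-2 lines.

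Of 16 measured contractile genes, 3 were lower (18.8%, against 1.94% of all measured genes) and 0 higher, with a median of -0.40. SRF, the transcription factor that drives many of them, leaned lower (588, 653, 363 and 367; log2 ratio -0.68). CNN1 (calponin) did not follow them, at 318, 1494, 238 and 466 (log2 ratio 0.55).

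CCN2 (connective tissue growth factor), a target of YAP and TEAD, had signals of 4024, 9185, 426 and 1808, 2.23-fold lower, with a second probe set at a log2 ratio of -1.69. CCN1 had 17806, 22960, 3764 and 8776, 2.03-fold lower, with a second at -1.27. Both were brightest in J3T-1shA and dimmest in J3T-2. Of 12 measured YAP-TEAD genes these 2 were lower (16.7%, against 1.94% of all measured genes). Another 1, NT5E, was higher (8.33%, against 2.72%), and the median was -0.44. The factors YAP1 (2011, 1692, 1449 and 1635) and WWTR1 (1983, 1942, 2609 and 1712) themselves stayed within 2-fold. ITGA5, the alpha chain of the fibronectin receptor, was 2.66-fold lower (2418, 1282, 628 and 908, second probe set -1.05). It was the 1 integrin of 10 measured that passed 2-fold (10%, against 1.94% of all measured genes).

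Other genes lower in J3T-2A fell into the same patterns. ANK3 (ankyrin-G), which anchors membrane proteins to the cytoskeleton, had signals of 1975, 1625, 142 and 232, at least 7.90-fold lower, and AUTS2, a regulator of neuronal development, had 1181, 1234, 268 and 366 (3.23-fold). These followed the line of origin. CDO1 (cysteine dioxygenase), which breaks down cysteine, had 4730, 644, 192 and 782 (6.05-fold, other probe sets at log2 ratios from -2.64 to -2.35). PLK2, a stress-induced kinase, had 1076, 163, 93.0 and 273 (3.95-fold). IQGAP1, a cytoskeletal scaffold, had 2302, 772, 696 and 671 (3.43-fold), and PSTPIP1, a cytoskeletal adaptor, had 1221, 516, 242 and 95.7 (at least 4.88-fold). In these 4 genes the J3T-1 array was highest and the other 3 lines were lower. They were picked for a J3T-1 signal above that of J3T-2A, which favours this pattern.

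The cholesterol synthesis list had a median of -0.29 over 28 measured genes, against -0.05 for all genes. In it, 1 member was over 2-fold lower (3.57%, against 1.94% of all measured genes) and 0 were higher. That 1 was INSIG1, which holds the SREBP complex in the endoplasmic reticulum, with 3757, 1569, 1856 and 1148 (3.27-fold; its second probe set gave a smaller log2 ratio of -0.83). TM7SF2 (-0.88), FADS2 (-0.81), SREBF1 (-0.79) and MVD (-0.78) had log2 ratios within 2-fold.

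For several processes the lines differed little. The cell cycle list had a median of 0.00 over 35 measured genes, with 0 higher and 1 lower (2.86%, against 1.94% of all measured genes). That 1 was the CDK inhibitor CDKN1A (9952, 2877, 5319 and 4827), 2.06-fold lower. Proteasome (27 genes, median -0.12) and oxidative phosphorylation (34 genes, median -0.14) had 0 genes past 2-fold in either direction, as did the list of amino acid and unfolded protein stress (28 genes, median 0.05). Hypoxia and glycolysis had 2 higher and 2 lower of 34 (5.88% each way, against 2.72% and 1.94% of all measured genes). One of the lower ones was GAPDH, whose probe set was dim (356, 37.2, 225 and 113) for a gene that every cell uses, so it does not gauge that transcript. The other was PKM, a pyruvate kinase, at 1861, 785, 1780 and 765, higher in both unmodified lines. A second probe set of PKM gave a log2 ratio of -0.65, within 2-fold.

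OSMR and STAT3, the genes at the centre of the study, did not pass 2-fold. OSMR, the oncostatin M receptor, had signals of 392, 116, 201 and 203, a log2 ratio of -0.95, so that it was over the limit in J3T-1 alone and at least 1.57-fold lower in J3T-2A. STAT3, the transcription factor activated below it, had 542, 812, 967 and 774, a log2 ratio of 0.51, and its other probe sets gave 0.44 and 0.79. J3T-1 thus had the highest OSMR signal and the lowest STAT3 signal of the 4 lines. The ligands and co-receptors OSM, IL6, LIF, LIFR and IL6ST were all under 250 on every array. So was ACTB of the housekeeping list (48.7 to 96.7), so a dim probe set does not show that a transcript is absent. IL11, another ligand of the family, was higher (256, 306, 2221 and 522; 2.04-fold), and SOCS2, a feedback inhibitor of cytokine receptors, was lower (1018, 719, 225 and 503; 2.02-fold).

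Of 24 measured mesenchymal glioblastoma markers 5 were over 2-fold higher (20.8%, against 2.72% of all measured genes) and 0 lower, with a median of 0.03. The 5 were C1S, C1R, SERPING1, TGFBI and IL13RA2, a decoy receptor for interleukin-13 at 45.8, 447, 120 and 386. C1S, C1R and IL13RA2 were under 250 in J3T-1. Against 250, C1R was only 1.10-fold and IL13RA2 1.55-fold higher. Of 6 measured proneural markers 1 was higher and 1 lower (16.7% each way, against 2.72% and 1.94% of all measured genes). PDGFRA, a growth factor receptor, was at least 1.15-fold higher (88.9, 181, 353 and 287). NCAM1, a neural adhesion molecule, was at least 1.41-fold lower (352, 388, 235 and 175). The medians of both lists lay near 0. Of the cell type markers, 1 of 6 for astrocytes (SLC1A3, a glutamate transporter, log2 ratio 0.72), 2 of 6 for neurons (NEFL among them) and 1 of 6 for microglia and macrophages (C1QA) were measured. Of the 6 for oligodendrocytes only 3 were on the array, and 1 was measured (CNP, a myelin enzyme, 397, 977, 1014 and 1019). Of the 5 for epithelium 4 were on the array, and 1 was measured (KRT8, log2 ratio -0.60). Defining glial markers were near the bottom of the scale, with GFAP at 8.2 to 21.6 and AQP4 at 3.4 to 16.9 over the 4 arrays. Leukocyte markers were too (PTPRC 11.5 to 35.1, CSF1R 66.5 to 77.3), and no endothelial marker of 6 was over 250 in J3T-1 or J3T-2A, with VWF at 17.9 to 68.8 and PECAM1 at 37.0, 1.0, 773 and 161. PECAM1 was over the limit in unmodified J3T-2.

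The pair J3T-2 over J3T-1shA also sets a J3T-2 line against a J3T-1 line, and it shares no array with J3T-2A over J3T-1. In that pair 372 of 7012 measured genes were over 2-fold higher (5.31%) and 308 were lower (4.39%). Of the genes measured in both pairs (6621), 176 were higher in J3T-2A than in J3T-1 and 48 of these were also higher in J3T-2 than in J3T-1shA, which is 27.3% of the first list and 16.3% of the second. For the lower genes 25 of 98 were lower in both, 25.5% of the first list and 10.96% of the second. Another 34 genes were higher in the first pair and lower in the second, and 10 were lower and then higher. Across the 6621 genes the log2 ratios of both pairs correlated with r = 0.16, a description over genes of 4 arrays.

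MMP1, CCL2, CXCL8, SAA1, VCAM1, NFKBIA, TNFAIP2, SLC2A9, C1S and NT5E were among the 48 higher in both pairs, as was MAN1A1, a mannosidase of the Golgi (5.1, 3.1, 753 and 1123), which was named after its values were seen. THBS1, TAGLN, ACTA2, ANK3, CCN1, CCN2, CALD1, CDO1 and ITGA5 were among the 25 lower in both. COL1A1, CCDC80, RDH10, PRSS23, COL5A1, PLAU, BMP6 and TGFBI were among the 34 in opposite directions. PTGES of the inflammation list was among those 34 too, so not every gene of that list kept its direction in the pair with no array in common.

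**Figure D4:**
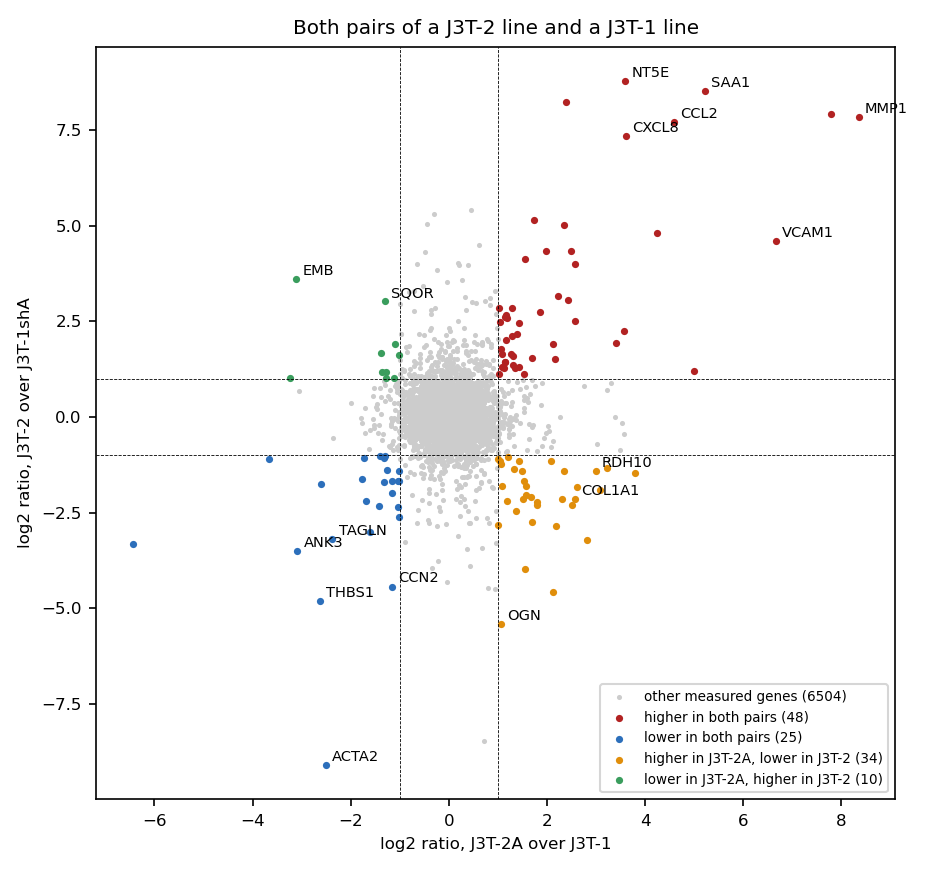
Log2 ratios of the 6621 genes measured in both pairs, J3T-2A over J3T-1 (horizontal) and J3T-2 over J3T-1shA (vertical), with dashed lines at 2-fold. The 48 genes higher in both (red, MMP1 and CCL2 among them) and the 25 lower in both (blue, THBS1 and TAGLN) lie in opposite corners, and 34 genes such as COL1A1 and RDH10 (orange) are higher in J3T-2A but lower in J3T-2.

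The ratios also differed between chromosomes. Genes were placed on chromosomes in the RefSeq annotation of the dog assembly UU_Cfam_GSD_1.0. The Entrez identifier was used for this, or, failing that, a symbol that occurs only once. This view was chosen after the data were seen. On 34 of 39 chromosomes the median log2 ratio of the measured genes was within 0.2 of 0. On the chromosome that carries COL1A1 the median was 0.37 over 439 genes (interquartile range 0.13 to 0.60), and 85.9% of them were above 0, against 44.7% of all measured genes. Second probe sets gave a median of 0.42 over 214 genes there. On this chromosome 22 genes were over 2-fold higher (5.01%, against 2.72% of all measured genes) and 1 was lower (0.23%, against 1.94%).

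That shift lay in J3T-1. Over 373 genes at 250 or over on all 4 arrays, the median deviation from the 4-line median of each gene was -0.31 in J3T-1, against 0.05 in J3T-1shA, 0.03 in J3T-2 and 0.04 in J3T-2A. Before this, the deviations of each line were centred on their median over such genes of all chromosomes. In runs of 20 neighbouring measured genes, the ratio of J3T-2A over J3T-1 had a median above 0 in 22 of 22 runs (0.11 to 0.55), from one end of the chromosome to the other. In the pair J3T-2 over J3T-1shA the median of this chromosome was -0.02. COL5A1, CCL2, PTGES, CNP, STAT3, STAT5A and STAT5B lie on it too. The log2 ratios of STAT3 (0.51), STAT5A (0.25) and STAT5B (0.84) thus stand beside a median of 0.37 for their neighbours, while those of COL1A1 (2.56) and CCL2 (4.60) lie far outside the interquartile range.

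The chromosome of CDK4 had a median of 0.29 over 258 genes, with 79.1% of genes above 0, 13 of 13 runs above 0 and a median deviation of -0.23 in J3T-1. Those of TNC and IGF1R had medians of -0.27 (208 genes) and -0.22 (190 genes), with 10 of 10 runs below 0 on each, and the smaller set of 70 genes on the chromosome of ATP5MC3 also had a median of -0.22 (second probe sets -0.14). On TNC's chromosome the last 100 genes in runs, from RRAGA to TNC, had a median of -0.40 with 88 of 100 below 0, against -0.15 for the first 100. On the chromosome of GAPDH the shift changed part of the way along. The 100 genes from USP18 to FAR2 had a median of -0.38 with 82 below 0, and the next 80, from ERGIC2 to PCBP2, had a median of 0.02. The chromosome of HIF1A, by contrast, had a median of -0.06 here and of 0.44 for J3T-2 over J3T-1shA, with a deviation of 0.38 in J3T-2. What underlies these medians was not tested.

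**Figure D5:**
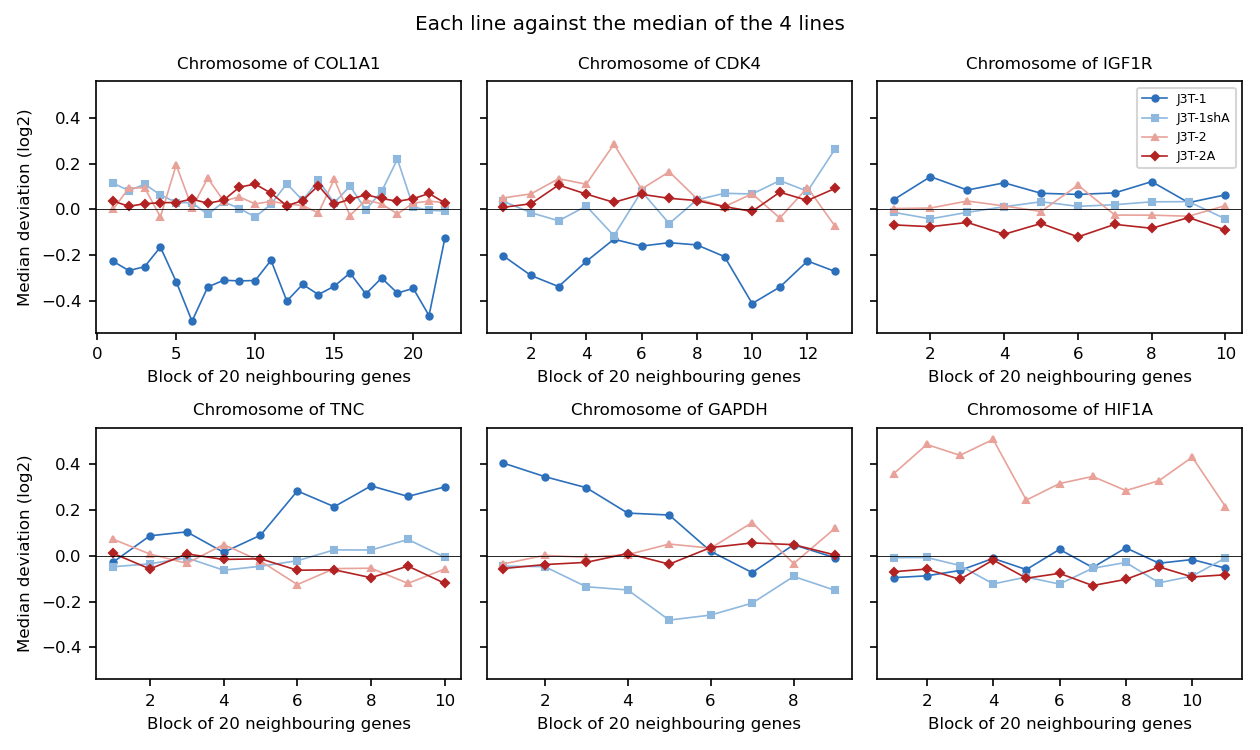
Median log2 deviation of each line from the 4-line median, in runs of 20 neighbouring genes along 6 chromosomes named by a gene they carry (horizontal: order of the run; only genes at 250 or over on all 4 arrays enter). The deviations of each line were centred on their median over such genes of all chromosomes. J3T-1 lies below the other lines along the whole chromosomes of COL1A1 and CDK4, above them on the later part of TNC's and the first part of GAPDH's, and J3T-2 alone is high along HIF1A's.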

How the data were processed

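RNA of 4 cell lines was hybridized to 1 GeneChip Canine Genome 2.0 array each. The authors computed a linear signal intensity per probe set with MAS5 and scaled each array to a common trimmed mean. The trimmed means of the deposited intensities, with 2% of values left out at each end, were 495.8 to 496.0, which is not the target that the methods name, so signals were read on the deposited scale and the limit of 250 was set on it. Of 42924 probe sets, 29254 had 1 gene symbol, 439 had several and 13231 were not listed in the annotation. Probe sets without a single symbol were left out, and 15115 genes remained, each read from its brightest probe set (by the mean of the 4 arrays). Entrez identifiers were found for 27680 probe sets in the current RefSeq table, and 0 symbols changed.

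Ratios of 2 signals were taken with no further normalization and no pseudocount, in Python 3.11.15 with numpy 2.4.6 and pandas 2.3.3. A gene counted as different past 2-fold. The steps were tested on simulated data with low noise and changes larger than 2-fold, made only in bright probe sets. That checks the code and not the calls near 2-fold or on dim signals. Where the second array was under 250, the bound was taken against 250. Named genes were ANXA2, OSMR and STAT3, the 10 largest ratios per direction among genes at 250 or over on both arrays, the 6 brightest per direction with the other array under 250, and members of 35 gene lists past 2-fold. Members named within 2-fold define their list. MAN1A1 was named outside this rule. The symbol TAZ, which can stand for different genes, was removed from the mesenchymal list after the ratios of the lists were seen, and not every gene the rule names is described. The comparison, the gene lists (1017 genes, 522 of them measured) and the rules were chosen with earlier results of these data known, so counts within lists are descriptions. The alternatives were median centring, quantile normalization, a limit of 500 or none, 250 on both arrays, a pseudocount of 80, other choices of probe set, and, chosen after seeing the data, a floor of 250. The medians by chromosome were also added after seeing the data. No genome build is named for the array, so no positions are given, and no sequences were used here.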

Additional observations from a re-analysis of the deposited data

Results flagged for a closer look

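In 23 named genes the ratio of J3T-2A over J3T-1 and that of J3T-2 over J3T-1shA lay past 2-fold in opposite directions. Both pairs set a J3T-2 line against a J3T-1 line, each array stands alone, and the difference was not tested. The log2 ratios given here are those of J3T-2A over J3T-1. Of these genes, GPC4, OGN, TIMP3, IL13RA2, BAMBI, ANGPT1, LTBP1, CYP1B1 and LOC485469 were under 250 in J3T-1, so their ratios rest on 1 dim signal. Of the matrix genes, COL1A1 (2.56), CCDC80 (2.32), GPC4 (1.68), TGFBI (1.53), SRPX2 (1.51), COL5A1 (1.43) and OGN (1.06) were higher in J3T-2A, as were the protease PLAU (1.49) and the inhibitor TIMP3 (1.04). Of the signalling genes, IL13RA2 (3.08), BMP6 (1.57), BAMBI (1.57), ANGPT1 (1.38), NTRK2 (1.32), FGFR2 (1.07) and LTBP1 (1.01) were higher. The enzymes RDH10 (2.99), PRSS23 (2.61), CYP1B1 (2.51) and PTGES (1.21) were higher, and so was LOC485469 (3.80), which has no gene name in the annotation. PKM (-1.28) and SQOR (-1.30), a mitochondrial enzyme of sulfide oxidation, were lower in J3T-2A and higher in J3T-2. The second probe sets of PKM (-0.65) and FGFR2 (0.42) were within 2-fold.

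NTRK2, PTGES and TIMP3 were lowest in J3T-1 and highest in J3T-1shA, with J3T-2 above J3T-2A. PLAU, SRPX2, ANGPT1, BAMBI and BMP6 were instead high in J3T-1shA and J3T-2A and low in J3T-1 and J3T-2.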

How the results depend on the processing

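The count of genes over 2-fold higher in J3T-2A (186) was 1543 with no filter on signal and 93 with 250 required on both arrays. It was 124 with a limit of 500, 132 with a pseudocount of 80 and 124 with signals under 250 set to 250. The count of lower genes (133) was 1434 with no filter, 62 with 250 on both arrays, 74 with a limit of 500, 79 with a pseudocount of 80 and 74 with signals under 250 set to 250. The 48 genes higher in both pairs became 343 with no filter and 14 with 250 on both arrays. The 25 lower in both became 335, and 8 with 250 on both arrays, and 13 with a limit of 500, with the pseudocount or with the floor. These settings change which genes enter or how dim signals count. Median centring gave 208 higher and 111 lower genes, all 186 and all 111 of them shared with the counts above, and quantile normalization gave 185 and 132. The axon guidance median (-0.04) was -1.16 with a limit of 500 and -0.61 with 250 on both arrays, where fewer genes were measured. Under the alternatives run, 259 of 261 list medians, 54 of 54 chromosome medians and 767 of 835 values of named genes moved by less than the SD between probe sets, and 0 changed sign while past 2-fold. No paired analysis was possible because each line has 1 array.

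With 1 array per line, no ratio has an error that covers cultures, and dim signals, such as the J3T-2A signal of COL6A1, have no reliable order below 250.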

Other observations

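Receptor tyrosine kinases and their ligands had 3 of 17 measured members over 2-fold higher in J3T-2A (17.6%, against 2.72% of all measured genes) and 0 lower (median log2 ratio 0.22). PDGFRA, among the 3, was under 250 in J3T-1 and not past 2-fold against 250. The 3 were PDGFRA, NTRK2 and FGFR2. NTRK2, a neurotrophin receptor, had signals of 287, 2248, 873 and 718 on the arrays (J3T-1 first, then J3T-1shA, J3T-2 and last J3T-2A). FGFR2, a fibroblast growth factor receptor, had 398, 1046, 446 and 833, but its second probe set gave a log2 ratio of 0.42, within 2-fold. Of the ERK targets, PHLDA1 was higher (422, 226, 912 and 951) and EPHA2 lower, with a median of -0.26 over 18 genes. That is 5.56% each way, against 2.72% higher and 1.94% lower of all measured genes. GUCY1A1, a subunit of the nitric oxide receptor guanylate cyclase, was lower (1842, 387, 215 and 836; 2.20-fold), as was FRZB, a secreted Wnt antagonist (523, 463, 118 and 234). KRT7, a keratin of simple epithelia, was lower too (1314, 561, 1071 and 527; 2.49-fold), and like PKM and SQOR it was bright in both unmodified lines. SQOR had 2038, 289, 2347 and 825.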
